A study of Mus musculus with 12 samples.

Results

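Genes that mark the pyramidal neurons of the hippocampal CA fields were followed in bulk hippocampus of 12 male mice. The 10 genes were taken by name, out of 33250 gene symbols in the count table, and every one was measured in every library and passed the filter on low counts. Wfs1, Fibcd1, Neurod6, Man1a, Pou3f1 and Nov were taken as CA1 markers, Rgs14 and Amigo2 as CA2 markers, and Bok and Grik4 as CA3 markers. Wild-type mice (WT, n = 6) were compared with conditional knockouts (cKO, n = 6) that lack the miRNA cluster from Mir379 to Mir410, to learn if its loss from glutamatergic neurons alters hippocampal gene expression. In cKO animals the Cre recombinase is driven from Emx1, a homeobox gene of the dorsal forebrain that is active in the lineage of pyramidal and granule neurons and of local glia. Cells outside that lineage, such as most interneurons, vessels and microglia, keep the cluster in a cKO hippocampus. The sources used here do not say how old the animals were or if WT animals carried Cre or floxed alleles.

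The CA fields follow each other along the pyramidal cell layer. CA3 neurons receive the mossy fibres of the dentate gyrus and project to CA1, which in turn projects to the subiculum, and the small CA2 field between them is known for its role in social memory. The fields differ in gene expression, so marker transcripts are used to tell them apart in sections and in single cells. Few of these genes are exclusive to a field: Neurod6 is shared by CA1 and CA3 pyramidal cells and by cortical neurons, and Amigo2 also labels part of CA3. In bulk tissue, fewer cells of a type and less RNA per cell cannot be told apart.

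The libraries held 42360558 to 51095758 counts each. At these depths the lowest count of any of the 10 genes in any library was 881 (Amigo2 in WT 5), and the highest was 9493 (Wfs1 in cKO 5). Labels were checked on the targeted region of chromosome 12, where the non-coding RNA B830012L14Rik read 0.310 to 0.865 CPM (counts scaled to library size) in WT and 17.4 to 25.8 CPM in 5 cKO libraries. The library labelled cKO 1 read 0.788 CPM, within the WT range, so the log2 fold change of each marker is also given without it. Other results on genotype are given without it only where stated. The intervals, the counts at an unadjusted p, the DESeq2 and limma-voom results and the correlations within cKO all include it. The library labelled cKO 1 also read 9.14 CPM for Emx1, against 8.38 to 9.60 CPM in WT and 5.91 to 6.84 CPM in the other cKO libraries. Mirg, checked along with them, was not lower in those cKO libraries. It read 28.4 to 34.1 CPM in WT, 32.6 to 46.4 CPM in the other cKO libraries and 23.6 CPM in cKO 1. Choroid plexus genes were lowest in WT 2, WT 3 and cKO 4, and the summed level of 8 of them ranged from 56.6 to 8305 CPM over all libraries.

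Between the genotypes, none of the 10 markers passed the test. Across the transcriptome 2 of 19325 genes did so at an adjusted p under 0.05 in edgeR's quasi-likelihood test, which is 0.0103% of the genes, and 0 of the 10 markers were among them. At an unadjusted p under 0.05 there were 2 of the 10, Neurod6 and Amigo2, against 9.54% of all genes. The median log2 fold change of the markers, cKO minus WT, was -0.023, and over all genes tested it was 0.0072. In 6 markers the fold change was below 0 and in 4 above 0, where 46.6% of all genes were below 0. Without the library labelled cKO 1 the split was 9 below 0 and 1 above 0, beside 49.3% of all genes below 0, the median of the markers was -0.042, and no marker passed (smallest adjusted p = 0.204 in edgeR). With DESeq2 and limma-voom none of the 10 passed either. Each had the same 2 at an unadjusted p under 0.05, against 9.37% and 9.56% of all genes.

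**Figure D1:**
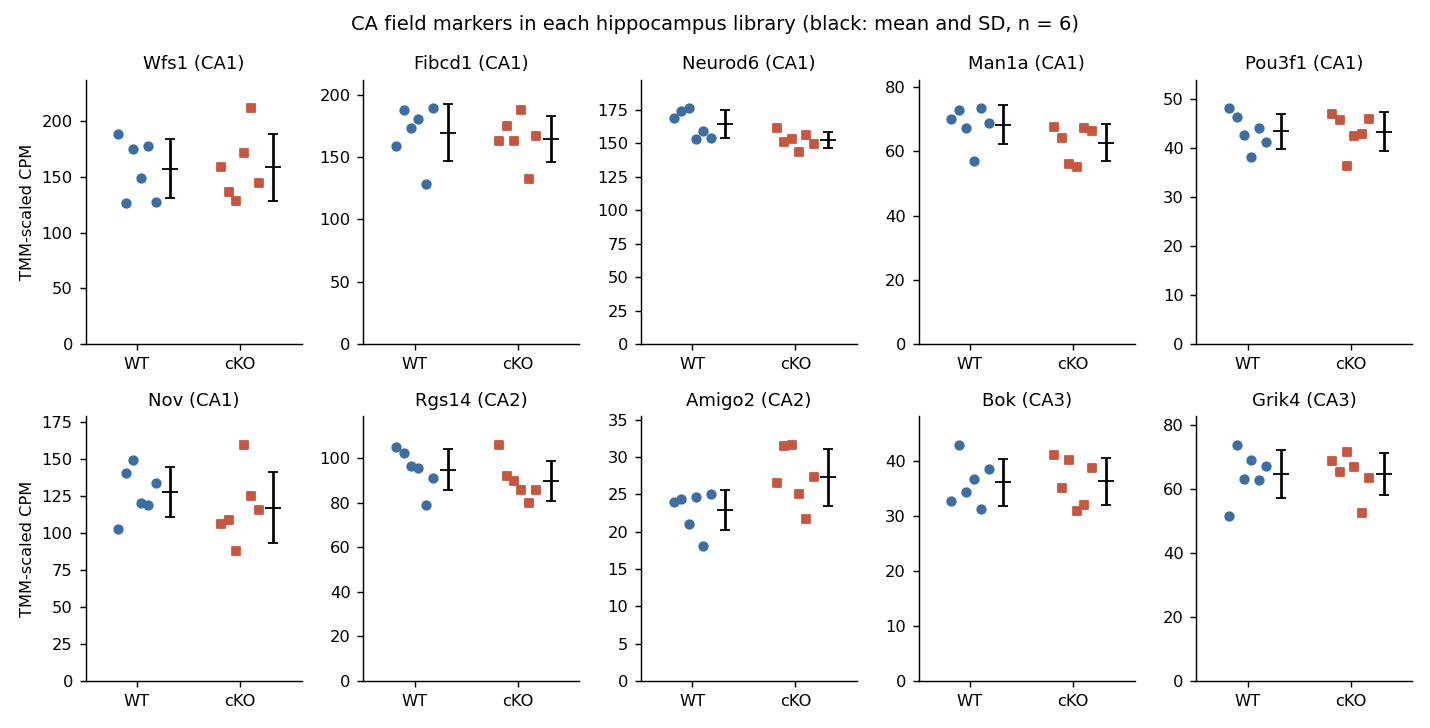
Each panel plots a marker's level in TMM-scaled CPM (vertical axis, from 0) for the 6 WT (circles) and 6 cKO (squares) libraries, with the mean and SD in black. The genotypes overlap in all 10 panels, and over the 12 libraries the spread relative to the level is widest for Wfs1 and Nov and narrowest for Neurod6.

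Neurod6, a basic helix-loop-helix transcription factor of pyramidal neurons, was the CA1 marker with the smallest p. In WT it ranged from 153 CPM (WT 4) over a median of 164 to 176 CPM (WT 3), and in cKO from 143 CPM (cKO 4) over a median of 152 to 162 CPM (cKO 1). All 6 cKO libraries lay below the WT median, and the groups overlapped because WT 4, WT 6 and WT 5 lay within the cKO range. The means were 164 ± 10.1 CPM and 152 ± 6.19 CPM (SD, n = 6 each). The log2 fold change was -0.11 ± 0.042 (SE), with an adjusted p of 0.451 in edgeR. Without the library labelled cKO 1 it was -0.13 with an adjusted p of 0.204 in edgeR. Without cKO 4, or without WT 2, WT 3 and cKO 4, its unadjusted p lay above 0.05.

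Man1a, a Golgi mannosidase that trims N-linked glycans, ranged from 56.9 to 73.5 CPM in WT around a median of 69.5 CPM, and from 55.0 to 67.7 CPM in cKO around a median of 65.3 CPM. All 6 cKO libraries were below the WT median, and WT 4 lay among the lowest libraries of either genotype. Its log2 fold change was -0.12 ± 0.069 (SE, adjusted p = 0.614 in edgeR), and -0.15 without the library labelled cKO 1 (adjusted p = 0.425). Nov, a secreted matricellular protein of the CCN family, averaged 127 ± 16.9 CPM (SD) over the 6 WT and 117 ± 24.2 CPM over the 6 cKO libraries. Its 2 extremes were both cKO libraries, 87.6 CPM in cKO 3 and 159.5 CPM in cKO 4, so the WT range of 103 to 149 CPM lay inside the cKO range. The difference of -0.12 ± 0.12 (SE) on the log2 scale had an adjusted p of 0.810 in edgeR, and it was -0.10 without the library labelled cKO 1. It depended on those extremes: without cKO 4 it was -0.23, with an unadjusted p under 0.05 and an adjusted p of 0.528, and without cKO 3 it was -0.057.

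The other 3 CA1 markers had fold changes close to 0. Wfs1, which encodes the endoplasmic reticulum protein wolframin, ranged from 127 CPM (WT 2) to 188 CPM (WT 1) in WT with a median of 162 CPM. In cKO it ranged from 129 CPM (cKO 3) to 211 CPM (cKO 5) with a median of 151 CPM. The cKO range held all of the WT range but its lowest libraries and reached further up, and the log2 fold change was 0.0098 ± 0.13 (SE) with an interval from -0.28 to 0.30 at 95% confidence. Fibcd1, a membrane receptor for acetylated sugars, averaged 169.6 ± 23.1 CPM (SD) over WT and 165 ± 18.5 CPM over cKO libraries, and its lowest library in each genotype was animal 5. Pou3f1, a POU-domain transcription factor, averaged 43.5 ± 3.55 CPM and 43.4 ± 3.92 CPM, with an interval of its log2 fold change from -0.15 to 0.15. Wfs1, Fibcd1 and Pou3f1 were at -0.00021, -0.048 and -0.035 on the log2 scale when the library labelled cKO 1 was left out.

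Of the CA2 markers, Amigo2 was nominally higher and Rgs14 lower, and neither passed over all genes. Amigo2, a leucine-rich repeat adhesion protein, ranged from 18.1 CPM (WT 5) over a median of 24.2 to 25.1 CPM (WT 6) in WT. In cKO it ranged from 21.7 CPM (cKO 5) over a median of 27.0 to 31.7 CPM (cKO 3). In 5 of 6 cKO libraries it was above the WT median, and only cKO 4 and cKO 5 lay within the WT range. The fold was 1.19, or 0.25 ± 0.099 (SE) on the log2 scale, and the adjusted p in edgeR was 0.451. Its unadjusted p lay above 0.05 without WT 3, WT 5, cKO 2 or cKO 3 in turn. Without cKO 5 the genotypes did not overlap, at 25.01 CPM for the highest WT and 25.05 CPM for the lowest cKO library, beside 0.688% of all genes in that comparison and 0.404% with all libraries. When the library labelled cKO 1 was left out, Amigo2 was 0.25 higher on the log2 scale (adjusted p = 0.366 in edgeR). Amigo2 lies on the opposite strand of Pced1b and shares 58 exon bases with it, so without a stated strand setting their reads may have been mixed. Pced1b read 6.21 CPM in WT and 6.82 CPM in cKO, with a log2 fold change of 0.14.

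Rgs14, a regulator of G-protein signalling that limits synaptic plasticity in CA2 neurons, ranged from 79.1 CPM (WT 5) to 105 CPM (WT 1) in WT and from 79.7 CPM (cKO 5) to 106 CPM (cKO 1) in cKO. The highest cKO value came from the library labelled cKO 1, and the other 5 cKO libraries, up to 91.8 CPM, all lay below the WT median of 95.8 CPM. Its log2 fold change was -0.079 ± 0.073 (SE, adjusted p = 0.786 in edgeR), and -0.14 without the library labelled cKO 1 (adjusted p = 0.423).

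The CA3 markers had fold changes close to 0. Bok, a member of the Bcl-2 family, averaged 36.0 ± 4.26 CPM (SD) over WT and 36.3 ± 4.26 CPM over cKO libraries. Its interval on the log2 scale was -0.18 to 0.20. Grik4, a high-affinity subunit of kainate-type glutamate receptors, averaged 64.6 ± 7.55 CPM and 64.6 ± 6.67 CPM, with an interval of -0.19 to 0.19. Both turned below 0 without the library labelled cKO 1, at -0.036 for Bok and -0.025 for Grik4 (adjusted p = 0.923 and 0.948 in edgeR).

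**Figure D2:**
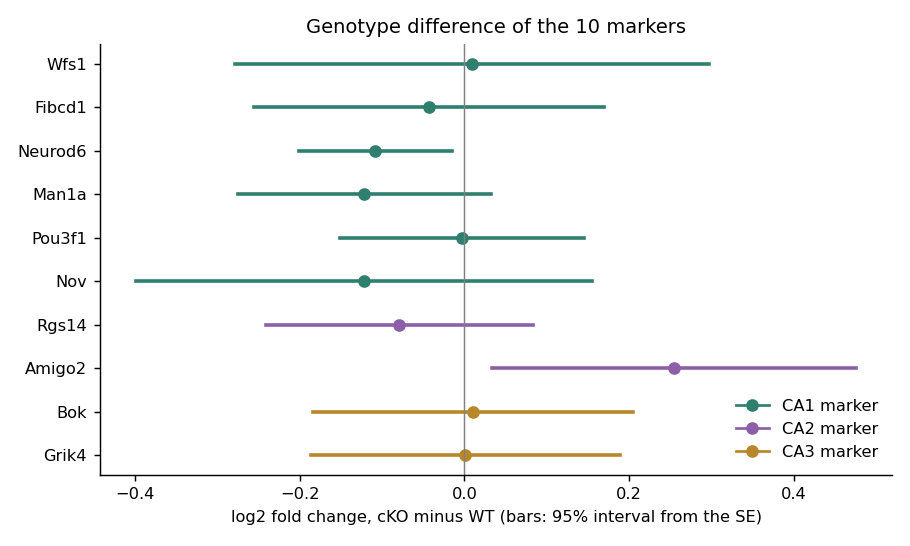
The log2 fold change of each marker, cKO minus WT (horizontal axis), is plotted with its 95% interval, computed from the SE with 10 residual degrees of freedom. The intervals of Neurod6 (below 0) and Amigo2 (above 0) leave out 0, but are not adjusted for the number of genes, and no marker passed over all genes tested.

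Markers of other cell types were set beside these values. The summed level of the smooth muscle genes Acta2, Myh11 and Tagln was 34.0 to 63.5 CPM in WT and 63.8 to 105 CPM in cKO. These ranges did not overlap, and the nearest libraries were WT 2 and the library labelled cKO 1. Taken singly, Acta2 and Tagln did not overlap between genotypes, beside 0.404% of all genes, and Myh11 did. None of the 3 genes passed (smallest adjusted p = 0.126 in edgeR). Against 46.6% of all genes below 0, all 8 dentate granule genes had a fold change below 0 with a median of -0.19, and none passed. Their summed level ranged from 538 to 661 CPM in WT and from 389 (cKO 4) to 665 CPM (cKO 1) in cKO. Without the library labelled cKO 1 the smooth muscle genes summed to 72.8 to 105 CPM in cKO (smallest adjusted p = 0.0650 in edgeR), and the dentate genes to 389 to 588 CPM with a median log2 fold change of -0.26, all 8 below 0 and none past the test. With all libraries, other lists also lay on 1 side of 0. All 6 interneuron, 8 choroid plexus, 4 mossy cell, 4 striatal and 3 endothelial genes were above 0. All 4 neocortical, 4 oligodendrocyte and 4 microglial genes were below 0. The thalamic, astrocyte and subicular lists had genes on both sides. The part of any of these cells in the values of the CA markers was not tested.

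Other genes of the CA fields gave no call either. Among 5 further CA1 genes 4 were below 0 and 1 above, with a median log2 fold change of -0.0085. Against 46.6% of all genes below 0, all 8 further CA2 genes were above 0 with a median of 0.079. The smallest p among them was that of Necab2, a calcium-binding protein, with means of 78.3 ± 7.48 CPM (SD) over WT and 89.7 ± 12.4 CPM over cKO libraries (log2 fold change 0.20 ± 0.085 SE, adjusted p = 0.496 in edgeR). Avpr1b, a vasopressin receptor of CA2 neurons, had the largest fold change of these 8 at a low level, 0.517 ± 0.177 and 0.684 ± 0.0867 CPM (log2 fold change 0.41 ± 0.20 SE, adjusted p = 0.559 in edgeR). Of 8 further CA3 genes 6 were above 0 and 2 below, with a median of 0.030. Of 6 genes of pyramidal neurons in general 5 were below 0 with a median of -0.032, among them Zbtb20 (-0.26 ± 0.17 SE) and Camk2a (-0.067 ± 0.055 SE). In these lists 0 genes passed, and 1 gene, Necab2, had an unadjusted p under 0.05. None passed when the library labelled cKO 1 was left out, and the genes above and below 0 numbered 3 and 2 for CA1 (median 0.0090), 7 and 1 for CA2 (0.043), 5 and 3 for CA3 (0.014) and 0 and 6 for pyramidal neurons in general (-0.044). Zbtb20 was then at -0.44 (adjusted p = 0.188 in edgeR).

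Levels were compared between genes per kilobase of the longest annotated transcript. Neurod6 stood above the others, at 73.6 CPM per kilobase over the 12 libraries and never below 66.6. Nov (42.6), Wfs1 (41.7), Rgs14 (38.8) and Fibcd1 (35.2) followed, and their ranges over the libraries overlapped from each to the next. Bok came next at 24.6 CPM per kilobase, with a range of 21.0 to 29.2 that overlapped the lowest Fibcd1 libraries. Man1a (12.8), Pou3f1 (11.3), Grik4 (10.98) and Amigo2 (8.37) were lowest, again with ranges that overlapped from each to the next. Salmon's own effective lengths were not used here, and the order depended on the length taken. With the union of exons Man1a came last at 6.79 CPM per kilobase, and Rgs14 fell below Fibcd1 to 21.8. With the mean transcript length Wfs1 (60.8), Rgs14 (51.6) and Bok (41.3) stood above Fibcd1, and Man1a was at 23.4. Neurod6 was first with all 3 lengths.

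The markers also differed in how much they varied between animals. Over the 12 libraries the coefficient of variation of CPM was 17.2% for Wfs1, 16.9% for Nov, 15.6% for Amigo2 and 12.03% for Fibcd1, against 6.39% for Neurod6 and 8.21% for Pou3f1. The median over 10194 genes with a mean of at least 500 counts was 5.74%, and Wfs1 varied more than 95.1% of these genes. The highest library exceeded the lowest 1.67-fold for Wfs1, 1.82-fold for Nov and 1.75-fold for Amigo2. Within WT these ratios were 1.48 for Wfs1, 1.45 for Nov and 1.38 for Amigo2, and within cKO 1.65, 1.82 and 1.46.

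No pair of markers of the same field passed the adjustment over all pairs. Of the 45 pairs of markers, 27 had a Pearson's r above 0 and 18 below 0 across the 12 libraries, on log2 CPM. Within a field 13 of 17 pairs were above 0 with a median of 0.15, and across fields 14 of 28 with a median of -0.0047, a difference that was not tested. Within CA1 11 of 15 pairs were above 0, and they ran from -0.65 to 0.69 with a median of 0.14. The most positive were Man1a with Pou3f1 (r = 0.69, permutation p = 0.0153, adjusted over the 45 pairs 0.148) and Neurod6 with Man1a (r = 0.65, permutation p = 0.0214, adjusted 0.148). The most negative within CA1 was Wfs1 with Fibcd1 (r = -0.65, permutation p = 0.0206, adjusted 0.148). Leaving out WT 1 and cKO 5, the libraries farthest from the Wfs1 median, it was -0.46. The CA3 pair of Bok and Grik4 had r = 0.67 and Spearman's rho = 0.73 (permutation p = 0.0147 and 0.00947, adjusted 0.148 and 0.107), and r = 0.74 without WT 2 and cKO 4, the libraries farthest from the Bok median. The CA2 pair of Rgs14 and Amigo2 had r = 0.28. Fibcd1 had r from 0.46 to 0.59 with the CA2 and CA3 markers, none of which passed, and without WT 5 and cKO 5, its lowest libraries, these were -0.30 with Rgs14, -0.27 with Amigo2, -0.039 with Bok and 0.49 with Grik4.

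**Figure D3:**
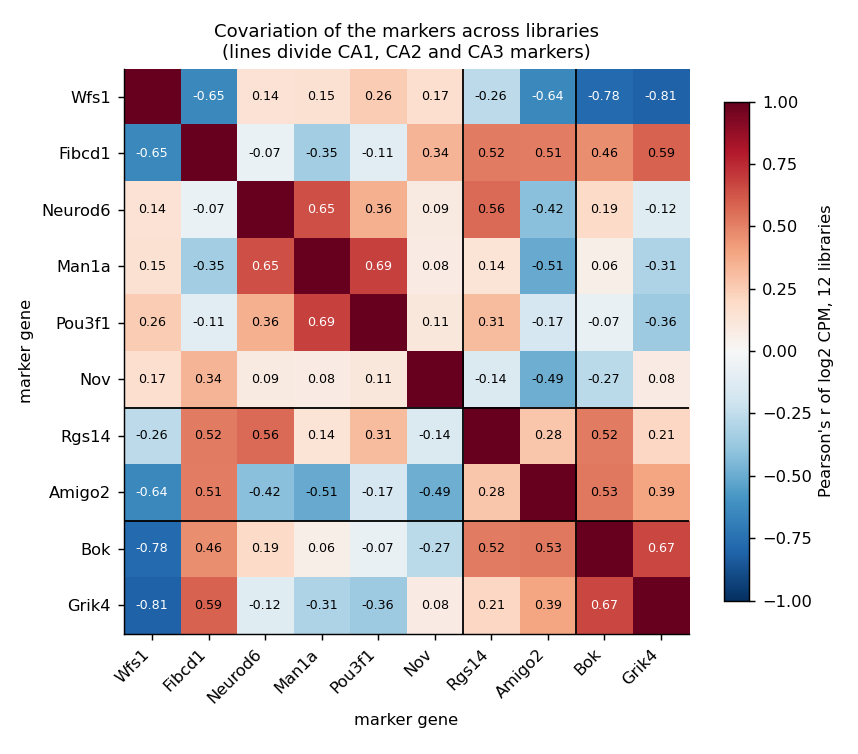
Pearson's r of log2 CPM over 12 libraries is shown for each pair of markers, from blue (-1) to red (1), with lines between the CA1, CA2 and CA3 markers on both axes. Wfs1 has negative values with Fibcd1, Amigo2, Bok and Grik4, down to -0.81, while Fibcd1, a CA1 marker as well, has positive values with the CA2 and CA3 markers (0.46 to 0.59).

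The single pair to pass was Wfs1 with Grik4, markers of different fields that ran in opposite directions. Its r was -0.81 (permutation p = 0.00065, adjusted 0.0292) and its Spearman's rho -0.82 (permutation p = 0.00181, adjusted 0.0814). Within WT r was -0.82 (exact permutation p = 0.0181) and within cKO -0.80 (exact permutation p = 0.0667), n = 6 each. Leaving out WT 1 and cKO 5 gave -0.63 (permutation p = 0.0551). The adjusted p of this pair lay above the threshold without WT 1, WT 2, WT 3, WT 5, WT 6, cKO 3 or cKO 5 in turn (0.0513 to 0.245), while r stayed between -0.84 and -0.70. Among all genes tested 0.295% had an r with Wfs1 at least as negative as that of Grik4.

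Grik4 had its lowest levels, 51.6 and 52.3 CPM, in WT 1 and cKO 5, the libraries with the highest Wfs1 at 188 and 211 CPM. In WT 2 and cKO 3, where Wfs1 read 127 and 129 CPM, Grik4 was highest in its genotype at 73.8 and 71.5 CPM. The low and high libraries of this pair came from both genotypes. Bok had an r of -0.78 with Wfs1 (permutation p = 0.00418, adjusted 0.0940) and a rho of -0.76 (adjusted 0.0999), and r was -0.73 without WT 1 and cKO 5. Amigo2 had an r of -0.64 with Wfs1 (permutation p = 0.0231, adjusted 0.148) and a rho of -0.65. Neither pair passed, and both were on the side of Grik4 and Fibcd1.

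**Figure D4:**
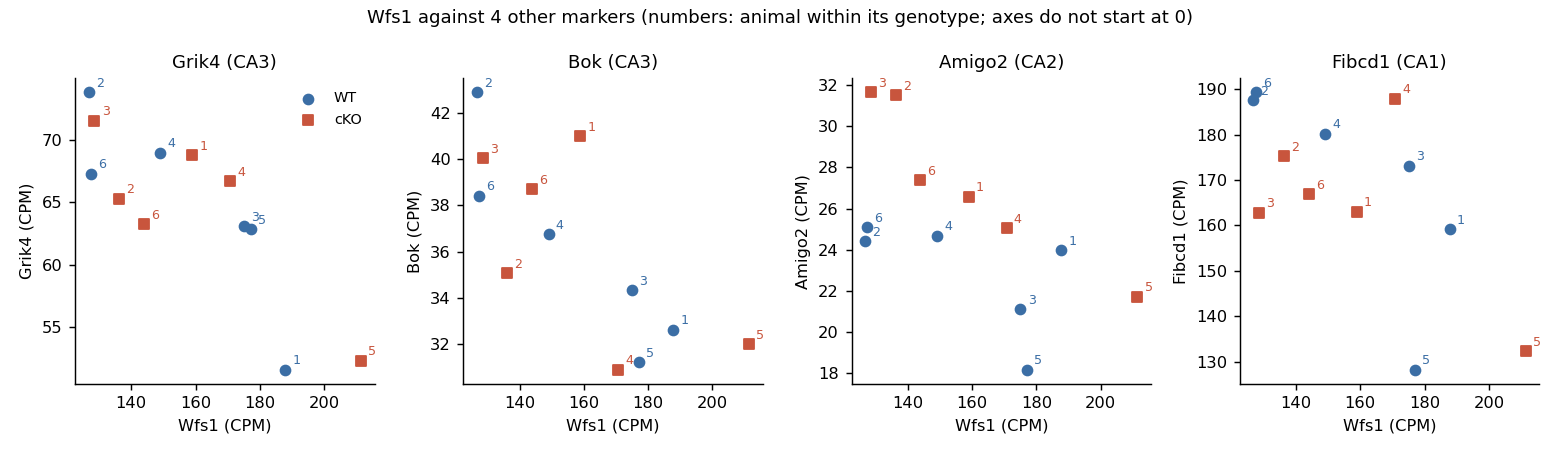
Levels of Grik4, Bok, Amigo2 and Fibcd1 (vertical axes, CPM) are plotted against Wfs1 (horizontal axis, CPM) for 6 WT (circles) and 6 cKO (squares) libraries, numbered by animal. All 4 tend to be lower where Wfs1 is higher, with r from -0.81 to -0.64, but not in every library. In cKO 4 Wfs1 reads 171 CPM and Fibcd1 188 CPM, and r with Fibcd1 is -0.46 without WT 1 and cKO 5. Only the pair of Wfs1 and Grik4 passed the adjustment over 45 pairs.

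Genes of neighbouring cortex also differed between these libraries. Slc17a6, the vesicular glutamate transporter of subicular and subcortical neurons, the neuropeptide gene Nts and the transcription factor gene Tshz2 were listed as subicular and retrohippocampal markers. Their summed level was 48.8 CPM in WT 2, 50.9 in WT 6, 52.0 in cKO 3 and 60.8 in cKO 1, and 116 in cKO 4, 125 in WT 1, 135 in cKO 5 and 144 CPM in WT 5. The other 4 libraries lay between, at 70.2 CPM in WT 4, 79.6 in cKO 2, 87.3 in cKO 6 and 102 CPM in WT 3. It spanned 48.8 to 144 CPM in WT and 52.0 to 135 CPM in cKO, so the genotypes covered the same range.

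Across the libraries Wfs1 ran with Slc17a6 and Tshz2, and the CA3 markers ran against them. For 300 pairs of a marker with another listed gene, adjusted together, 21 passed. Wfs1 had r = 0.89 with Tshz2 (permutation p = 0.00024, adjusted 0.0107) and 0.87 with Slc17a6 (permutation p = 0.00037, adjusted 0.0139), with rho of 0.91 and 0.92. Bok had r = -0.92 with Tshz2 and -0.91 with Slc17a6 (permutation p = 0.00014 and 0.00018, adjusted 0.0107 each), with rho of -0.87 for both. Grik4 had r = -0.76 with Tshz2 and -0.79 with Slc17a6 (permutation p = 0.00187 and 0.00081, adjusted 0.0312 and 0.0176), with rho of -0.88 and -0.89. Without the 2 libraries farthest from each marker's median these 6 values stayed at 0.88, 0.81, -0.91, -0.90, -0.79 and -0.82 in the same order. The direction was not particular to CA3. With Slc17a6 and Tshz2, r was -0.67 and -0.62 for Fibcd1, -0.58 and -0.62 for Amigo2, and -0.55 and -0.46 for Rgs14. None of these passed, and they were -0.36 to -0.24 without 2 libraries. For the other CA1 markers r was -0.072 and -0.036 (Neurod6) and 0.12 to 0.28 (Man1a, Pou3f1 and Nov), and none passed. By Pearson's r Nts, the third of these genes, passed with none of the markers. It had r = 0.55 with Wfs1, -0.71 with Bok and -0.72 with Grik4 (permutation p = 0.0672, 0.0129 and 0.00555, adjusted 0.239, 0.0999 and 0.0590). By Spearman's rho Nts passed with Grik4 (rho = -0.80, permutation p = 0.00302, adjusted 0.0447). Its rho was 0.48 with Wfs1 and -0.52 with Bok, and neither passed. How far neighbouring tissue in a dissected sample entered the Wfs1, Bok and Grik4 values was not tested. The neocortical genes Cux2, Rorb, Tbr1 and Fezf2 summed to 131 to 146 CPM in WT 2, WT 6, cKO 1 and cKO 3, and to 156 to 198 CPM in WT 1, WT 5, cKO 4 and cKO 5. In the libraries between, they summed to 142 CPM in cKO 6, 144 in cKO 2, 147 in WT 4 and 174 CPM in WT 3, not in the order of the subicular sum.

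**Figure D5:**
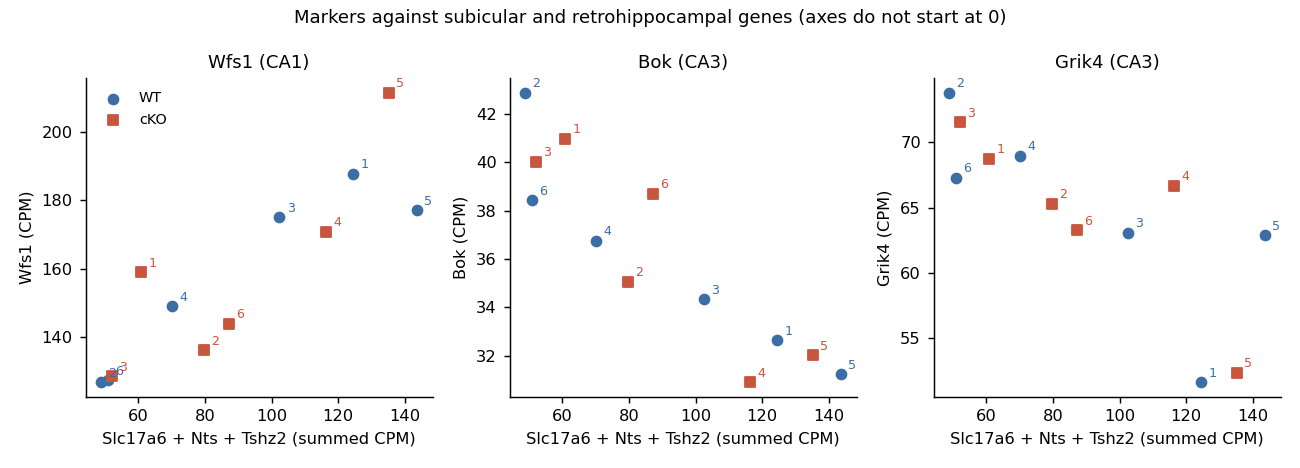
Levels of Wfs1, Bok and Grik4 (vertical axes, CPM) are plotted against the summed CPM of Slc17a6, Nts and Tshz2 (horizontal axis) for 6 WT (circles) and 6 cKO (squares) libraries. Bok is lowest in the libraries with the most of these genes. Wfs1 tends to be higher and Grik4 lower there, but not in every library. Grik4 reads 66.7 CPM in cKO 4, where the sum is 116 CPM, and 63.3 CPM in cKO 6, where the sum is 87.3 CPM. Both genotypes are spread along the axis.

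Other listed genes placed the markers further. Homer3, a postsynaptic scaffold protein listed with CA3, ran with Bok (r = 0.84, rho = 0.87, permutation p = 0.00054, adjusted 0.0147) and Grik4 (r = 0.83, rho = 0.91, permutation p = 0.0008, adjusted 0.0176) and against Wfs1 (r = -0.86, rho = -0.89, permutation p = 0.00025, adjusted 0.0107). Without the 2 libraries farthest from each marker's median these 3 values were 0.94, 0.77 and -0.76. Of the 8 further CA3 genes only Homer3 passed with Bok or Grik4. The 8 ran from r = -0.046 to 0.84 with Bok (median 0.37) and from -0.32 to 0.83 with Grik4 (median 0.60). Actn2, listed with CA2, had a higher r with Grik4 than Homer3, at 0.87 (rho = 0.81, permutation p = 0.00042, adjusted 0.0140), and 0.63 without 2 libraries. Nrgn, the calmodulin-binding protein neurogranin of principal neurons, also ran against Wfs1 (r = -0.89, rho = -0.93, permutation p = 6e-05, adjusted 0.0090, r = -0.87 without WT 1 and cKO 5). Without WT 2, WT 3 and cKO 4 the number of pairs that passed was 9.

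For each marker the genes with the most similar profile were taken by Pearson's r of log2 CPM after centring within genotype, over 12 libraries and 12161 other genes with a mean of at least 5 CPM. They are the highest of many values and are given as a description. Wfs1 was followed most closely by Klf5 (r = 0.95), Azin2 (0.94) and Plch1 (0.93), and Fibcd1 by Tubb2b (0.96), Crym (0.94) and Kctd6 (0.92). Neurod6 was followed by Ppp6c (0.91), Hps3 and Chn1, Man1a by Pvr (0.88), Cdadc1 and Ndst4, Pou3f1 by Cox5b (0.88), mt-Nd3 and Rpp14, and Nov by Slbp (0.95), Usp46 and Tmem246. For CA2, Rgs14 was followed by Fam19a5 (0.92), Mrpl41 and Nudt16, and Amigo2 by Lrrc42 (0.93), Errfi1 and Lrch1. For CA3, Bok was followed by Epn2 (0.94) and Ehd1, and Grik4 by Capn5 (0.94), Adamts9 and Fem1a. No marker appeared among the 3 nearest genes of another marker.

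The RefSeq records used here held 69 mature miRNAs with 63 distinct seeds in the cluster that cKO animals lack. The cluster lies between 109709060 and 109743795 on the plus strand of chromosome 12 (GRCm38). For miR-376c, miR-485, miR-487b and miR-539 the records held 1 arm only, so seeds of the cluster may be missing from the counts. A miRNA represses transcripts mainly through pairing of its seed, bases 2 to 8, with sites in the 3′ UTR. Matches to these seeds were counted in the longest annotated 3′ UTR of each marker, as a description of sequence. Neurod6 and Amigo2, the markers with the smallest p between genotypes, held 4 matches in 815 bases and 1 match in 855 bases. They were picked for display after their values were seen, and their miRNAs are shown with the seed in capitals.
mmu-miR-541-5p: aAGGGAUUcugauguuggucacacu
mmu-miR-667-3p: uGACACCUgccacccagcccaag
mmu-miR-300-5p: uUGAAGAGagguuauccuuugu
mmu-miR-495-3p: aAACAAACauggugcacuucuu
mmu-miR-382-3p: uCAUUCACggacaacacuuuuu

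The sites in the 3′ UTR are given on the transcript's strand with the match in capitals, 4 in Neurod6 on the minus strand of chromosome 6 and 1 in Amigo2 on the minus strand of chromosome 15 (GRCm38).
Neurod6 site for mmu-miR-541-5p, chr6:55678462-55678490: atgtcataataAATCCCTtttcgtatgag
Neurod6 site for mmu-miR-667-3p, chr6:55678301-55678329: ttgtttgaacaAGGTGTCtaagatgttgc
Neurod6 site for mmu-miR-300-5p, chr6:55678014-55678042: aacaactattcCTCTTCAagcattttcag
Neurod6 site for mmu-miR-495-3p, chr6:55677876-55677904: tttctgtacagGTTTGTTacagtgtataa
Amigo2 site for mmu-miR-382-3p, chr15:97244184-97244212: ccttaagttatGTGAATGgctgagtagac

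Seed matches of this kind were common. Among 15355 genes with a 3′ UTR of at least 50 bases, 24.2% held the match of mmu-miR-495-3p, 18.7% that of mmu-miR-300-5p, 13.6% that of mmu-miR-382-3p, 10.1% that of mmu-miR-667-3p and 9.51% that of mmu-miR-541-5p, and 91.1% held a match to at least 1 of the 63 seeds. Over the 10 markers there were 57 matches to 30 of the seeds. Fibcd1 held the most, 18 in 3148 bases, followed by Man1a with 15 in 2652 bases, Grik4 with 9 in 2694 bases and Nov with 6 in 1534 bases. Wfs1 held no match to these 63 seeds in 769 bases. Per kilobase Fibcd1 had 5.72 and Neurod6 4.91 matches, above the median of 3.98 over all these genes, and Amigo2 had 1.17, below it. The genotype intervals of Fibcd1 and Wfs1 were -0.26 to 0.17 and -0.28 to 0.30 on the log2 scale. They included 0, as did those of all markers but Neurod6 and Amigo2. Whether the matches bear on the fold changes was not tested. A match says only that these letters are present.

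The markers lie on different chromosomes except Nov and Amigo2, both on chromosome 15 (GRCm38). Wfs1 lies on chromosome 5 from 36966104 to 36989205 (minus strand), Grik4 on chromosome 9 from 42518135 to 42944493 (minus strand) and Bok on chromosome 1 from 93685660 to 93695764 (plus strand). Neurod6 lies on chromosome 6 from 55677822 to 55681263 and Amigo2 on chromosome 15 from 97244125 to 97247287, both on the minus strand. Nov, at 54745702 to 54754039 on the plus strand, is listed under its later symbol Ccn3 in the annotation.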

How the data were processed

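Bulk hippocampus RNA of 6 WT and 6 cKO animals was sequenced as polyA RNA libraries, per the labels' protocols with Trizol-chloroform extraction and a NEB kit. The authors deposited a table of expected counts, with a row for each gene symbol and a column for each animal, without scaling. Salmon 1.3.0 and GRCm38 are named per the submitters' processing notes. The sources used here give neither the strand setting nor the annotation. In each library 24.8% to 25.9% of the values were not whole, and all were rounded.

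Genotypes were compared with edgeR 4.0.16 in R 4.3.3 (quasi-likelihood test, TMM scaling, filterByExpr at its defaults of 10 counts per library and 15 in total, genotype alone), with Benjamini-Hochberg adjustment over all genes tested and a threshold of 0.05. Levels are TMM-scaled CPM. The log2 CPM used for correlations had a prior count of 2. Correlation p-values came from two-sided permutation tests with 100000 resamples, or all orders for 6 or 9 libraries. Alternatives used limma 3.58.1 and DESeq2 1.42.0. Each library is a separate animal, so the error is that between animals. Libraries of the same genotype all differed by more than counting noise (lowest chi-square divided by its degrees of freedom, 7.93). Steps were tested on simulated data. Gene coordinates, transcript lengths and 3′ UTRs came from GENCODE M21 and miRNA sequences from RefSeq (GRCm38.p6). All 10 markers were matched, Nov through a RefSeq synonym.

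The markers, gene lists and tests were chosen with earlier results of these data known. Named were all 10 markers, up to 4 genes of each other CA list by smallest p, and the 3 nearest genes per marker, without predicted genes and Rik names. Some results under this rule are not reported here. The 300 pairs with other listed genes and the lists without cKO 1 were added after the data were seen. B830012L14Rik, Mirg, Emx1, Pced1b and the other genes of those pairs were named after their values were seen.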

Additional observations from a re-analysis of the deposited data

Results flagged for a closer look

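Man1a in WT 4 stood apart from its group. It read 56.9 CPM there, against 67.4 to 73.5 CPM in the other 5 WT libraries, and the gap was 0.63 of the group's range, above Dixon's 95% critical value for 6 samples. This was 1 of 20 groups examined (10 markers in 2 genotypes), and chance flags about 5% of groups. In cKO the lowest Man1a libraries, cKO 4 and cKO 3, read 55.0 and 56.1 CPM. Without WT 4 the log2 fold change of Man1a was -0.18.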

How the results depend on the processing

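No marker passed under any of the 21 alternatives to the genotype comparison, including each animal left out, with a smallest adjusted p of 0.204. Of 210 recomputed fold changes 180 kept their direction, and the 30 that did not belonged to 5 markers and were at most 0.095 in size. These were Grik4 with upper-quartile scaling (-0.0012) and with no low-count filter (-0.0015), Pou3f1 with library totals alone (0.0064), Wfs1 and Pou3f1 without WT 2, WT 3 and cKO 4 (-0.042 and 0.021), and the rest with 1 animal left out, where the log2 fold change ran from -0.095 to 0.060 for Wfs1, from -0.11 to 0.0076 for Fibcd1, from -0.044 to 0.038 for Pou3f1, from -0.036 to 0.060 for Bok and from -0.062 to 0.050 for Grik4. The cause of these changes was not tested.

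Over all genes, 76 were called by DESeq2, 0 by limma-voom (1847 at an unadjusted p under 0.05), 1 with no low-count filter, 0 without WT 2, WT 3 and cKO 4 (1457 unadjusted, edgeR), and 0 to 6 with 1 animal left out, 6 being without cKO 1. With animal number as a replicate block edgeR called 0 genes. There, 4 markers, Neurod6, Man1a, Rgs14 and Amigo2, had an unadjusted p under 0.05, against 8.92% of all genes (1724). Deviations of animals with the same number correlated from -0.28 to 0.42, so the numbers were not taken to pair the animals. The number of markers whose genotypes do not overlap was 0 or 1 with 1 animal left out, beside 0.519% to 2.21% of all genes. The number of correlated marker pairs was 0 with centring within genotype, with Spearman's rho and without WT 2, WT 3 and cKO 4, and 0 to 2 with 1 animal left out. For the 300 pairs it was 9 without WT 2, WT 3 and cKO 4, and 17 without cKO 1. With 6 animals per genotype and counts of at least 881, the intervals of the markers give how closely their fold changes were measured. How small a difference could have been found was not tested.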

Other observations

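Of the markers, Nov had the largest ratio of its highest to its lowest library, 1.82. Mpped1, listed with CA1, had r = 0.81 and rho = 0.82 with Nov across the 12 libraries (permutation p = 0.00155, adjusted over 300 pairs 0.0291), and r = 0.61 without the 2 libraries farthest from the Nov median. Map3k15, listed with CA2, had r = -0.85 and rho = -0.89 (permutation p = 0.00051, adjusted 0.0147), and -0.86 without those 2. Nov with Wfs1 had r = 0.17 (permutation p = 0.595, adjusted over 45 pairs 0.837), and Mpped1 with Wfs1 had r = 0.52 (permutation p = 0.0804, adjusted over 300 pairs 0.262).

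Bhlhe22, a transcription factor listed with pyramidal neurons in general, had the r nearest to 1 with Bok among these genes, at 0.91 (rho = 0.88, permutation p = 3e-05, adjusted over 300 pairs 0.0090), and 0.85 without the 2 libraries farthest from the Bok median. Necab2, listed with CA2, ran against the CA1 marker Man1a at r = -0.73 (rho = -0.76, permutation p = 0.00248, adjusted 0.0372), and at -0.64 without 2 libraries.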
